A study of Mus musculus with 12 samples.

Results

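The 114 genes described here span 600 kb or more of the mouse genome, and were read in lower motor neurons carrying 0, 1 or 2 copies of a TDP-43 mutation. Members were chosen by a rule on length and abundance: an entry of the deposited table qualified if its end minus its start was at least 600000 bases and its mean over 12 libraries was at least 20 counts. Of 25965 entries, 130 had such a span and 126 of these also had the mean count. A further 12 were set aside by symbol because they encode potassium channels, glutamate or GABA receptors and their partners, calcium channel subunits, guidance receptors or the nuclear receptor Esrrg. The remaining 114 all passed the filter on low counts, among 16338 genes tested. The rule used no comparison between genotypes.

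The libraries came from lumbar lower motor neurons cut out by laser from C57BL/6 mice aged 5 months. Per the labels, 4 libraries were wild type (+/+), 4 were heterozygous and 4 were homozygous for a knock-in of the Q331K change in TDP-43, so the mutant protein is made from the mouse gene itself and homozygotes have no normal copy. Whether the 4 libraries of a genotype are 4 separate mice is not stated, and p-values therefore measure only the spread between libraries, which may in part be technical. The question was whether transcripts of very long genes differ in level between motor neurons of the 3 genotypes.

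TDP-43, encoded by Tardbp, is a nuclear protein that binds UG-rich stretches of RNA, many of them deep inside introns, and mutations in it cause amyotrophic lateral sclerosis. When TDP-43 is removed from the mouse nervous system, transcripts with very long introns, among them neurexins, neuroligins and other synaptic adhesion genes, are known to be lost preferentially. Q331K changes the protein's C-terminal domain and leaves its RNA-binding domains in place. Very long genes are a neuronal speciality: most encode adhesion molecules, synaptic scaffolds and receptors, and their transcription and splicing take hours.

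Where the annotation allowed it, the sequence that TDP-43 prefers was looked up in the members' transcripts. The motif was a run of TG repeated 6 or more times in the sense direction, written as DNA and searched in GENCODE M21 transcripts of build GRCm38. It was present in 31 of 112 members with an annotated transcript (27.7%) and in 13.1% of shorter genes. The run CA, its complement read on the opposite strand, was present in 30.4% of members and 11.04% of shorter genes. Among genes whose combined exons measured 6911 to 13220 bases, the middle range of the members, TG runs were in 12 of 56 members (21.4%) and in 25.7% of shorter genes, while CA runs were in 30.4% and 22.1%. Of the 31 runs, 19 lay in a 3′ UTR, 2 in a 5′ UTR, 1 in coding sequence and 9 in noncoding transcripts of the gene. Introns, where most known binding lies, were not searched here. The runs below are shown because Sntg1, Csmd3 and Ptprd had the smallest p-values of any members with higher estimates in mutants except Lama2, and Nell1 is among the most abundant members. Lama2 also had a run, of 6 repeats, which is not shown. Dpp6 and Erc2, with lower estimates in homozygotes at an unadjusted edgeR p under 0.05, had no such run. Whether a TG run goes with a genotype difference was not tested. Capitals mark the TG run, and Ptprd is shown for the first 22 bases of its run only.
Sntg1, minus strand, run at chr1:8677495-8677508, 3′ UTR: taaaTGTGTGTGTGTGTGagtg
Csmd3, minus strand, run at chr15:48254425-48254444, noncoding transcript: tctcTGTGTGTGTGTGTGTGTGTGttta
Ptprd, minus strand, run at chr4:76592662-76592715, noncoding transcript: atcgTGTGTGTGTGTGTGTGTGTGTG
Nell1, plus strand, run at chr7:50864018-50864031, 3′ UTR: accaTGTGTGTGTGTGTGgtgc

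The members spanned 602 to 4435 kb with a median of 912 kb, and 46 reached 1 Mb. They lay on 20 chromosomes, with 7 on X. Almost all of this length was intron: the exons of a member made up a median of 1.1% of its span (n = 111 with a GENCODE span of 600 kb or more), against 18.7% in shorter genes. The longest intron had a median of 314 kb in members and 8.40 kb in shorter genes. All 112 that matched a GENCODE gene were protein coding. Their transcripts had a median GC content of 44.8%, against 49.9% in shorter genes.

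Levels are given as CPM, the counts per 1000000 counts of the library total after scaling by the TMM method. Members were of ordinary abundance, with a median of 19.0 CPM (range 0.341 to 236) against 17.1 CPM in shorter genes. Per kb of exon the order changed: the median was 1.82 CPM in members and 3.64 CPM in shorter genes. By that measure the splicing regulator Rbfox1 was highest (31.3 CPM per kb of exon), followed by the secreted EGF-repeat protein Nell1 (18.9), the presynaptic adhesion receptor Nrxn3 (18.7) and the protocadherin Pcdh9 (18.3). Counts were found in all 12 libraries for 108 members.

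Some spans do not describe a single long transcript. Gm20388 (4435 kb) and Fgfr2 (2961 kb), the longest 2 members, have introns of 4384 and 2909 kb in GENCODE and run across many other genes, and Arfip1 has a GENCODE span of 86.5 kb. Another entry overlapped 61 members, on the opposite strand in 54, and the library kits keep no strand. For 18 members an overlapping entry held counts of at least 10% of the member's own. Those 18 are uncertain, among them Camta1 (overlapped by Uts2), Ctnna2 (Lrrtm1), Macrod2 (Flrt3), Rbms3 (Gm17396), Arhgap26 (Fgf1), Astn2 (Trim32) and Prkg1 (Cstf2t).

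Library totals ran from 60886825 to 83504446 counts. Motor neuron markers were abundant in every library (18 of 19 listed markers tested, summed level 21310 to 52290 CPM). Heterozygous replicate 1 and homozygous replicate 1 stood apart. The 10 inhibitory interneuron markers, all tested, summed there to 21.5 and 19.4 CPM, against 199 to 480 CPM in the other 10 libraries. Among them Gad1, which makes GABA, and Slc6a5, the glycine transporter, were at 0 in homozygous replicate 1, and Slc6a5 was at 1.35 CPM in heterozygous replicate 1 against 123 to 293 CPM in the other 10. Excitatory interneuron markers (9 of 10 tested) summed to 88.7 and 97.4 CPM against 216 to 391 CPM, and motor neuron markers to 51337 and 52290 CPM against 21310 to 34876 CPM. The remaining marker lists, for glia and vessels, did not set both libraries far outside the others, except that endothelial markers summed to 1230 and 1363 CPM against 981 to 1138 CPM. That sum does not describe each of the 13 endothelial markers tested. Against wild type, 12 of them had lower estimates and 1 a higher one in heterozygotes, and 9 lower and 4 higher in homozygotes. Cldn5 was at 1.68 and 2.87 CPM in these 2 libraries, inside the 0.379 to 8.11 CPM of the other 10. Differences are also given without these 2 libraries for the main genes they touch. The 19 oligodendrocyte markers, all tested, summed to 1411 to 1776 CPM in heterozygous and 2020 to 2294 CPM in homozygous libraries, without overlap. Wild type libraries covered 1346 to 3562 CPM. The part of oligodendrocyte RNA in differences between homozygotes and heterozygotes was not tested. In captured tissue, fewer cells of a type and less RNA per cell cannot be told apart. Tardbp itself was at 73.7 ± 7.68 CPM in wild type, 73.0 ± 5.48 in heterozygous and 75.6 ± 2.17 in homozygous libraries (SD, n = 4 each).

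No very long gene passed the test in any comparison. With edgeR's quasi-likelihood test and Benjamini-Hochberg adjustment over all 16338 genes, 0 of 114 members were called between homozygotes and wild type, where 0.00612% of all genes (1 gene, not a member) were called. Heterozygotes against wild type gave 0 of 114 members (0% of all genes), homozygotes against heterozygotes 0 of 114 (0%), and the slope per mutant copy 0 of 114 (0.00612%). DESeq2 and limma-voom also called 0 members in each of the 4 comparisons, the smallest adjusted p of any member being 0.266 (DESeq2, slope per copy). Of all 16338 genes, DESeq2 called 13, 13, 8 and 12 in the 4 comparisons in that order, and limma-voom called 1, 0, 0 and 1. At an unadjusted p under 0.05, DESeq2 had 7, 6, 3 and 7 members in those comparisons (5.75%, 4.87%, 3.54% and 5.85% of all genes). With limma-voom the counts were 11, 5, 2 and 14 members (7.25%, 6.52%, 4.25% and 7.70% of all genes), the last being 12.3% of members. No sensitivity of these genes to the Q331K change was thus called, and they are named here only by their length.

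At an unadjusted p under 0.05 edgeR gave members shares near those of the whole table. Homozygotes against wild type had 6 such members, 4 with higher and 2 with lower estimates (5.26% of members, 4.82% of all genes, made up of 2.19% higher and 2.63% lower). Heterozygotes against wild type had 4 (3.51% against 4.1%), 3 of them higher (1.79% of all genes) and 1 lower (2.31%), and homozygotes against heterozygotes 2 (1.75% against 2.97%). The slope per copy had the same 6 members as the homozygous comparison (4.67% of all genes, 2.11% higher and 2.56% lower). Sorted by overlap instead, all 4 homozygous libraries lay above all 4 wild type libraries for 2 members (1.29% of all genes) and below them for 4 (2.12%). The corresponding counts for heterozygotes were 1 member above (1.48%) and 1 below (1.76%), and between homozygotes and heterozygotes 2 above (1.03%) and 0 below (0.998%).

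The summed level of the 114 members was 4008, 3912, 3942 and 3930 CPM in wild type replicates 1 to 4. It was 3603, 3907, 3907 and 3948 in heterozygous and 3651, 4040, 3987 and 3845 in homozygous libraries. The low values are the 2 interneuron-poor libraries, and all others lie between 3845 and 4040 CPM. Means were 3948 ± 41.5, 3841 ± 160 and 3881 ± 174 CPM (SD, n = 4 each), and without replicate 1 they were 3921 ± 24.1 in heterozygous and 3957 ± 101 in homozygous libraries (n = 3 each). The members took 0.339% to 0.414% of all counts in a library.

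The median log2 difference of the members was 0.03 in homozygotes against wild type, with quartiles of -0.20 and 0.24. Shorter genes of like abundance, weighted to the members' own spread over classes of mean count, had a median within 0.01 of 0. In heterozygotes the members' median was -0.04, against -0.01 in shorter genes of like abundance. Between homozygotes and heterozygotes it was 0.07, against 0.00. Each gap is close to or under the SD between libraries of the same genotype of 0.06, measured as the median log2 CPM of members minus that of shorter genes. That SD is of single libraries, and a difference between groups of 4 libraries would vary less, so it is a lenient yardstick. Estimates below 0 numbered 54 of 114 in homozygotes (50.6% of all genes were below 0 and 49.4% above), 61 in heterozygotes (50.3% and 49.7%) and 48 between homozygotes and heterozygotes (50.2% and 49.8%). For the slope per copy, 54 members were below 0, against 50.6% of all genes.

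Median differences stayed close to 0 in every class of gene length. In homozygotes the median difference was 0.02 for 4432 genes under 10 kb, -0.02 for 4124 genes of 30 to 100 kb, 0.01 for 364 genes of 300 to 600 kb and 0.02 for the 126 genes of 600 kb or more before any were set aside. In heterozygotes the same classes had medians of 0.03, -0.02, -0.02 and -0.04, so they were slightly lower in longer classes, by less than the quartile range of any class. Members of 1 Mb or more (n = 46) had a median of -0.01 in homozygotes and -0.06 in heterozygotes, and members of 600 kb to 1 Mb (n = 68) had 0.04 and -0.03. Across members, the homozygous difference had Spearman's rho of -0.07 with log span (n = 114) and -0.18 with log length of the longest intron (n = 112). These correlations are over genes that share the same libraries and are descriptions only. The plot of differences by gene length shows these medians with their quartiles.

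**Figure D1:**
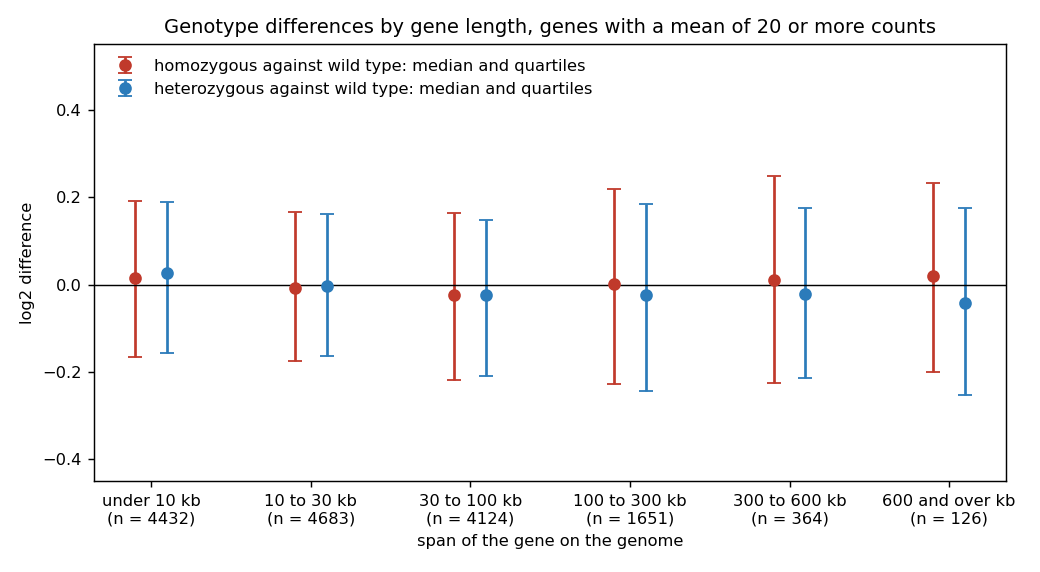
Median and quartiles of the log2 difference from wild type (y axis) for genes with a mean of 20 or more counts, in 6 classes of genomic span (x axis), for homozygotes (red) and heterozygotes (blue). The quartiles straddle 0 in every class, and the medians of the class of 600 kb or more are 0.02 and -0.04.

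The precision behind these values differed between members. The standard error of the homozygous difference ran from 0.08 to 2.17 on the log2 scale with a median of 0.26. For 81 of 114 members the 95% interval excluded a 2-fold lower level in homozygotes, and for 63 it excluded a 1.5-fold lower level (71.8% and 54.0% of shorter genes). In heterozygotes 85 and 58 members excluded these. Shares of shorter genes in this paragraph are over all 15254 of them, not weighted to the members' abundance. Mean counts of 20 to 100 were held by 9 of 114 members and by 2307 of the shorter genes. Estimates past 1.5-fold were held by 11 members in homozygotes, 3 lower and 8 higher (9.65%, against 15.6% of shorter genes). In heterozygotes 15 members held one, 9 lower and 6 higher (13.2% against 15.1%). A member not called is thus not shown to be equal between genotypes.

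**Figure D2:**
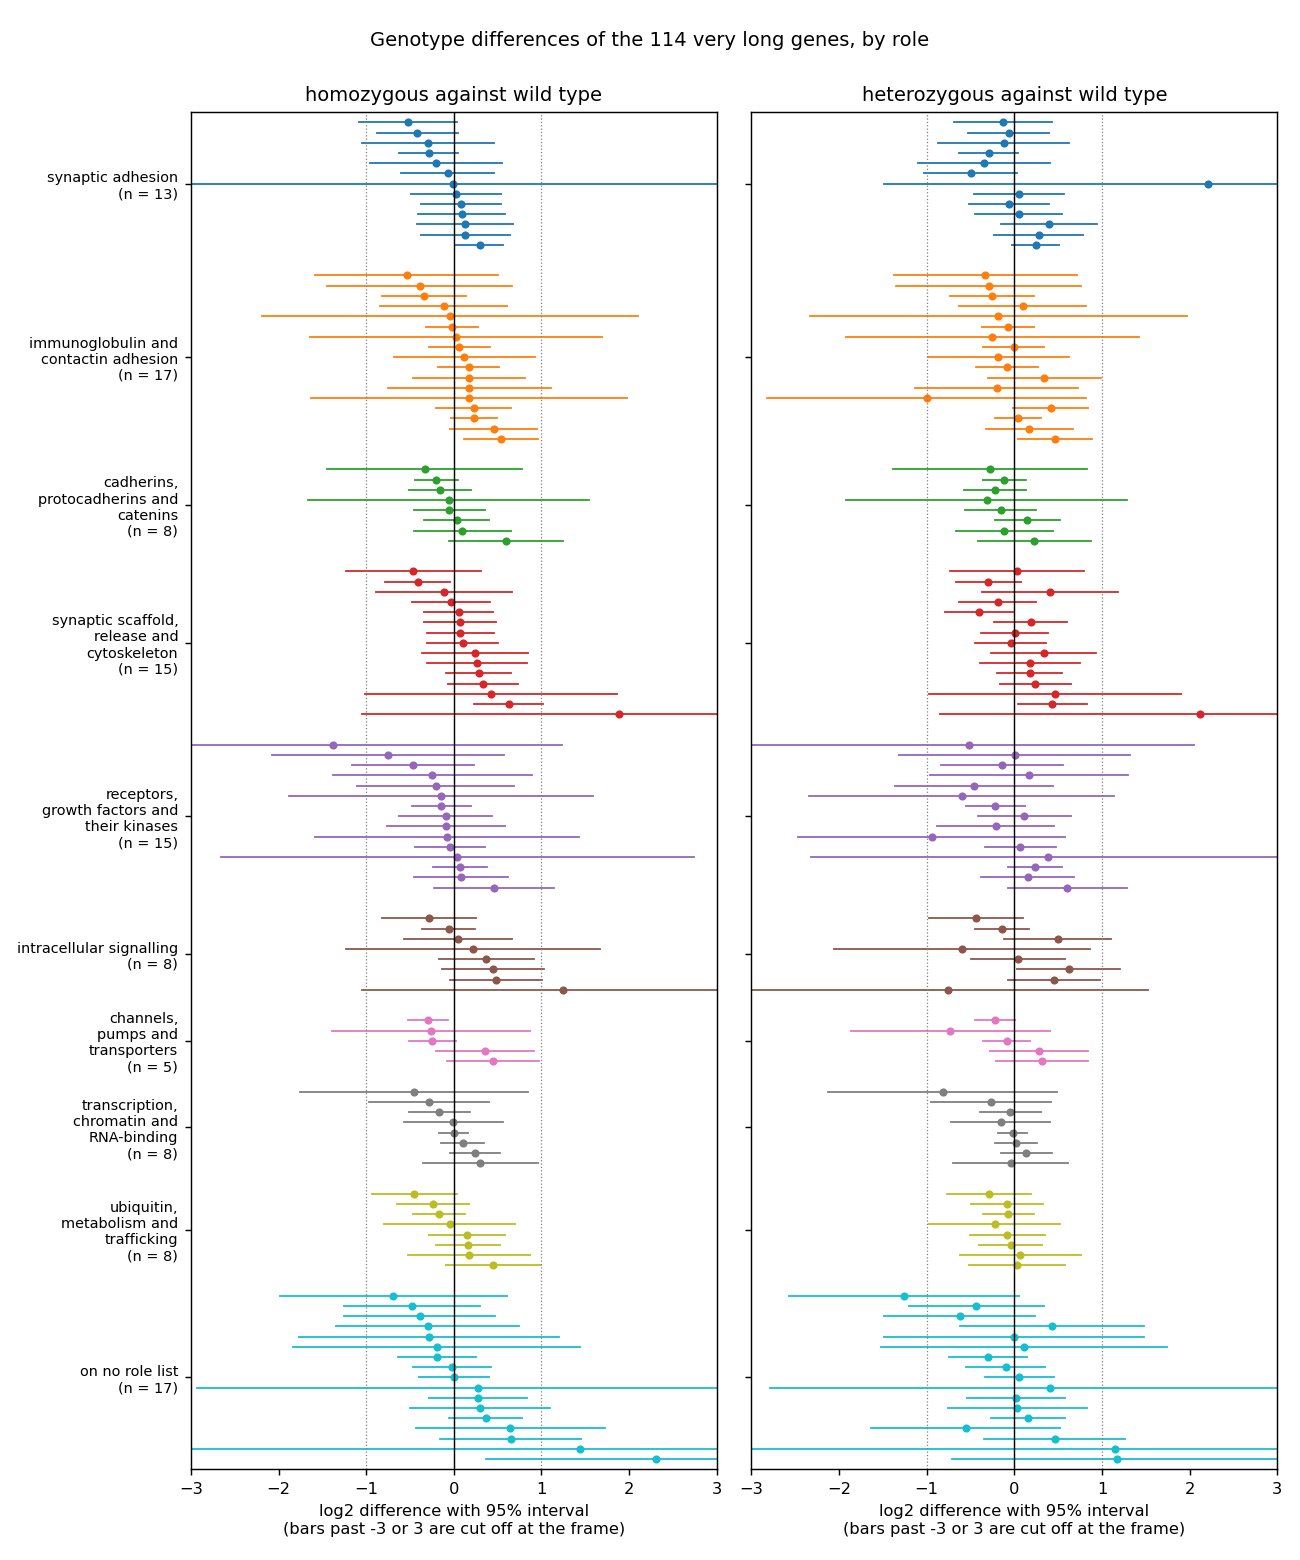
Log2 difference of each of the 114 very long genes (points) with its 95% interval (bars), for homozygotes (left) and heterozygotes (right) against wild type, grouped by role on the y axis and in the same order in both panels. Dotted lines mark 2-fold. In the left panel 6 intervals exclude 0, and none of these genes passed the adjusted threshold.

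The members are described next by role, using lists of gene functions. Of 13 synaptic adhesion genes, 0 were called in any comparison, and 6 had higher and 7 lower estimates in homozygotes (median -0.01) and likewise in heterozygotes (median -0.06). Their summed level was 749 ± 66.3 CPM in wild type, 716 ± 101 in heterozygous and 693 ± 102 in homozygous libraries (SD, n = 4 each). Without replicate 1 the mutant sums were 765 ± 29.8 and 744 ± 15.4 CPM (n = 3 each).

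Ptprd (chr4:75941238-78211961, minus strand, 2271 kb) encodes a receptor tyrosine phosphatase that organises presynaptic terminals. Its level was 103, 93.4, 98.2 and 113 CPM in wild type, 139, 121, 115 and 108 in heterozygous and 143, 118, 140 and 101 in homozygous libraries. Most mutant libraries lay above wild type, but the lowest of each mutant genotype fell inside the wild type range. The log2 difference was 0.30 (SE 0.12, 95% interval 0.03 to 0.56) in homozygotes, with an edgeR p of 0.0328 and an adjusted p of 0.986. The heterozygous estimate was 0.24. Without the 2 interneuron-poor libraries, which held the highest value of each mutant genotype, the homozygous difference was 0.23 with a p of 0.0715.

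Nrxn3 (chr12:88722876-90334935, plus strand, 1612 kb), a presynaptic receptor for neuroligins, was the most abundant member, at 236 CPM over all libraries. Wild type libraries held 201, 220, 296 and 319 CPM, heterozygous libraries 105, 294, 261 and 291 CPM and homozygous libraries 93.0, 255, 243 and 254 CPM. Apart from the 2 interneuron-poor libraries, both mutant genotypes lay inside the wild type range, and every homozygous library was below every heterozygous one. The homozygous difference of -0.29 (SE 0.35) became -0.04 (SE 0.14) without the interneuron-poor libraries, and the heterozygous difference of -0.12 became 0.13. The difference between homozygotes and heterozygotes was then -0.17 (SE 0.15).

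Nlgn1 (chr3:25431811-26133734, minus strand, 702 kb) encodes a postsynaptic partner of neurexins. Its 4 wild type values were 25.8, 26.2, 18.7 and 13.6 CPM. Heterozygotes had 35.0, 18.2, 31.0 and 26.5 CPM and homozygotes 18.8, 28.8, 19.5 and 25.3 CPM. The groups overlapped, with differences of 0.13 (SE 0.25) in homozygotes and 0.39 (SE 0.25) in heterozygotes. Mdga2, which binds neuroligins, averaged 18.8 ± 5.31, 13.3 ± 3.60 and 17.9 ± 2.84 CPM in wild type, heterozygotes and homozygotes (SD, n = 4 each). Il1rapl1, a postsynaptic partner of Ptprd, averaged 13.5 ± 2.69, 12.3 ± 3.16 and 9.38 ± 3.09 CPM in that order, with an adjusted p of 0.986 in homozygotes.

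Among 17 immunoglobulin, contactin and related adhesion genes, 0 were called, with 11 higher and 6 lower estimates in homozygotes (median 0.12) and 6 higher and 11 lower in heterozygotes (median -0.08). Csmd3 (chr15:47580637-48792063, minus strand, 1211 kb) encodes a large membrane protein with complement-control domains. It was at 23.0, 27.2, 28.3 and 25.2 CPM in wild type, 40.6, 26.5, 42.9 and 33.1 in heterozygous and 32.1, 37.6, 51.7 and 29.2 in homozygous libraries. All 4 homozygous libraries and 3 of 4 heterozygous libraries were above every wild type library. The differences were 0.54 (SE 0.20, adjusted p 0.986 with edgeR) and 0.47 (SE 0.20, adjusted p 0.999). Homozygotes without the 2 interneuron-poor libraries differed by 0.61 (SE 0.21).

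Its relative Csmd1 averaged 8.78 ± 1.32 CPM in wild type, 11.7 ± 1.98 in heterozygous and 10.3 ± 1.58 in homozygous libraries (SD, n = 4 each). Cntnap2, the axonal partner of contactins that gathers potassium channels beside the node, was at 65.5 ± 6.95, 62.4 ± 11.9 and 64.6 ± 5.60 CPM, and its homozygous interval of -0.32 to 0.28 excluded a 1.5-fold difference either way. Cntn5, a contactin, averaged 10.9 ± 1.64, 12.2 ± 3.53 and 14.9 ± 3.06 CPM, with an overlap of all 3 genotypes. The lipoprotein receptor relative Lrp1b was at 55.4 ± 9.38, 55.1 ± 7.92 and 58.0 ± 11.2 CPM.

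The IgLON adhesion proteins Lsamp, Ntm and Opcml did not share a pattern. Lsamp averaged 115 ± 12.3, 118 ± 15.2 and 135 ± 16.5 CPM in wild type, heterozygotes and homozygotes. Ntm was at 93.0, 154, 177 and 168 CPM in wild type, 28.9, 154, 136 and 152 in heterozygous and 34.7, 118, 114 and 142 in homozygous libraries. The interneuron-poor libraries were far below the rest, and the homozygous difference of -0.54 (SE 0.48) was -0.25 (SE 0.18) without them. Opcml held 10.4 and 12.3 CPM in those 2 libraries and 34.1 to 61.5 CPM in the other 10, and its homozygous difference of -0.39 was -0.09 without them.

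The 8 cadherins, protocadherins and catenins had 0 calls, 3 higher and 5 lower estimates in homozygotes (median -0.06) and 2 higher and 6 lower in heterozygotes (median -0.14). Pcdh9 averaged 135 ± 27.2, 116 ± 18.6 and 121 ± 19.3 CPM, and the cell-surface cadherin Cdh13 61.1 ± 18.6, 54.8 ± 7.46 and 58.9 ± 6.44 CPM (SD, n = 4 each). Ctnna2, the neuronal alpha-catenin that ties cadherins to actin, was at 79.0 ± 3.53, 72.9 ± 10.8 and 68.9 ± 6.96 CPM. Pcdh15, best known from the tip links of hair cells, averaged 7.73 ± 3.33, 9.07 ± 2.26 and 11.7 ± 1.27 CPM, and 1 wild type library of 12.2 CPM lay inside the homozygous range.

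Synaptic scaffold, release and cytoskeletal genes numbered 15, with 0 called and 11 higher and 4 lower estimates in both homozygotes (median 0.10) and heterozygotes (median 0.18). Sntg1 (chr1:8361475-9299878, minus strand, 938 kb) encodes gamma-1-syntrophin, a neuronal adaptor of the dystrophin complex, and had the smallest p of all members. It was at 16.0, 11.7, 14.5 and 18.9 CPM in wild type, 22.2, 21.2, 22.1 and 16.9 in heterozygous and 24.5, 25.3, 26.4 and 18.1 in homozygous libraries. In each mutant genotype 3 libraries were above all wild type libraries and replicate 4 was below wild type replicate 4. The homozygous difference was 0.62 (SE 0.18, 95% interval 0.23 to 1.02), with an edgeR p of 0.00464 that became 0.986 after adjustment. The heterozygous difference was 0.43 (adjusted p 0.999) and the slope 0.31 per copy (SE 0.09, adjusted p 0.978).

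Dmd (dystrophin, 2257 kb on X) had wild type values of 28.1, 36.3, 31.1 and 21.9 CPM, heterozygous values of 19.0, 24.4, 24.0 and 21.2 CPM and homozygous values of 24.7, 31.0, 38.0 and 28.1 CPM. Heterozygotes were the lowest genotype and did not overlap homozygotes, while homozygotes overlapped wild type. The differences were -0.41 (SE 0.18) in heterozygotes and 0.05 (SE 0.18) in homozygotes, with an adjusted p of 1 between homozygotes and heterozygotes in edgeR.

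Erc2 (chr14:27622442-28478537, plus strand, 856 kb) encodes a scaffold of the presynaptic active zone. Wild type libraries held 42.4, 33.6, 34.8 and 38.4 CPM, heterozygous libraries 22.2, 33.3, 32.8 and 33.3 CPM and homozygous libraries 21.4, 31.4, 32.8 and 26.5 CPM. Both mutant genotypes lay wholly below wild type, although the highest mutant values lay just under the lowest wild type library. Of all genes, 2.12% had homozygotes and 1.76% had heterozygotes wholly below wild type, and the share with both was not counted. The homozygous difference of Erc2, -0.41 (SE 0.17, p 0.0328, adjusted p 0.986 with edgeR), was -0.30 (SE 0.13) without the interneuron-poor libraries. Bai3, an adhesion G protein-coupled receptor at synapses, averaged 43.2 ± 13.2, 48.8 ± 18.3 and 51.8 ± 6.97 CPM. The scaffold Magi1 was at 48.1 ± 6.97, 46.7 ± 11.5 and 51.6 ± 9.13 CPM and the exocyst subunit Exoc4 at 48.4 ± 8.75, 55.1 ± 9.48 and 50.9 ± 12.3 CPM.

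**Figure D3:**
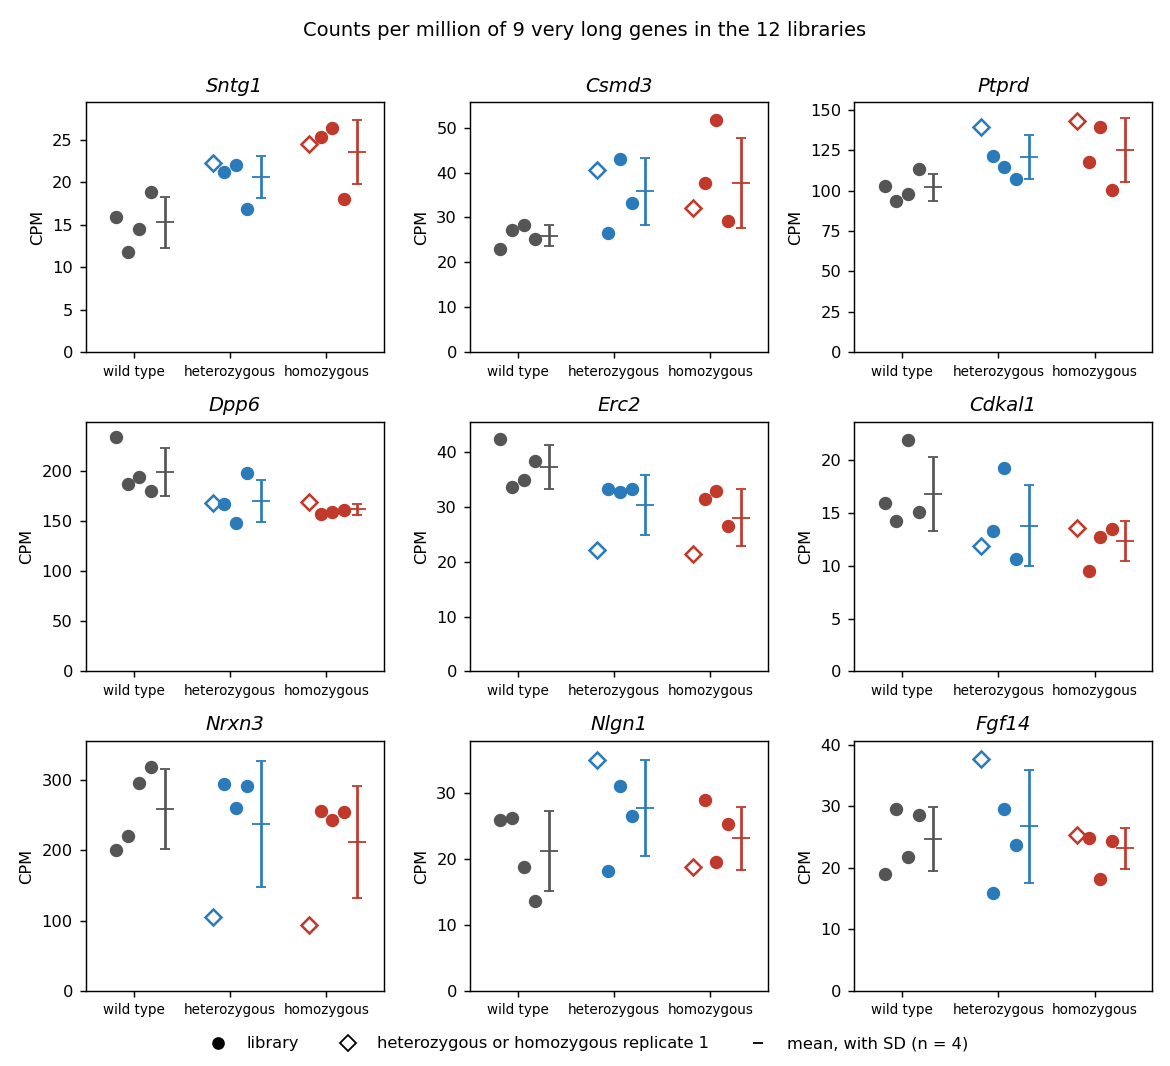
CPM (y axis, from 0) of 9 very long genes in each library of the 3 genotypes (x axis), with the mean and SD of 4 libraries beside the points. Open diamonds are heterozygous and homozygous replicate 1. Csmd3 in homozygotes lies above all wild type libraries, and Dpp6, Erc2 and Cdkal1 lie below them, while the other 5 overlap.

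The group of 15 receptors, growth factors and related enzymes had 0 calls, with 4 higher and 11 lower estimates in homozygotes (median -0.09) and 8 higher and 7 lower in heterozygotes (median 0.00). Fgf14, an intracellular factor that binds sodium channels, was at 18.9, 29.6, 21.8 and 28.6 CPM in wild type, 37.7, 15.9, 29.6 and 23.8 in heterozygous and 25.3, 24.9, 18.2 and 24.4 in homozygous libraries. The heterozygous libraries covered the whole range of the other genotypes. The differences were -0.09 (SE 0.24) in homozygotes and 0.11 (SE 0.24) in heterozygotes. Nell1 averaged 130 ± 22.9, 144 ± 50.0 and 138 ± 44.6 CPM, with 218 and 203 CPM in the interneuron-poor libraries and at most 163 CPM elsewhere, and its homozygous difference of 0.08 was -0.17 without them. Dab1, the adaptor that carries reelin signals, was at 73.6 ± 10.5, 86.6 ± 14.5 and 77.3 ± 10.1 CPM. Ptprn2, a phosphatase-like protein of dense-core vesicles, averaged 37.0 ± 8.65, 31.9 ± 1.15 and 33.6 ± 3.40 CPM.

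For 8 intracellular signalling genes there were 0 calls, with 6 higher and 2 lower estimates in homozygotes (median 0.30) and 4 each way in heterozygotes (median -0.05). The phospholipase Plcb1 ran from 49.4 to 93.2 CPM in wild type, and averaged 87.8 ± 27.4 in heterozygous and 89.4 ± 18.6 in homozygous libraries. Its highest libraries, at 128 and 116 CPM, were the interneuron-poor ones, and the homozygous difference of 0.48 (SE 0.24) was 0.33 (SE 0.19) without them. Inpp4b, a phosphoinositide phosphatase, was at 16.6 ± 6.49, 25.5 ± 4.88 and 22.7 ± 5.06 CPM. Its heterozygous difference was 0.62 (SE 0.27), with an edgeR adjusted p of 0.999, and 3 of 4 heterozygous libraries were above all wild type libraries. The kinase Mast4, at 602 kb just inside the length limit, averaged 45.9 ± 12.2, 33.9 ± 7.21 and 37.6 ± 10.6 CPM, and its homozygous difference of -0.29 was -0.09 without the interneuron-poor libraries. Prkg1, a kinase driven by cyclic GMP, was near 1 CPM in wild type (0.922 ± 0.644) and had an estimate of 2.00 (SE 1.08) between homozygotes and heterozygotes, and the gene Cstf2t inside it held far more counts than Prkg1 itself.

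The 5 channel-related genes had 0 calls, with 2 higher and 3 lower estimates in each mutant genotype. Dpp6 (chr5:26817203-27727505, plus strand, 910 kb) encodes an auxiliary subunit of A-type potassium channels. Its levels were 233, 187, 194 and 180 CPM in wild type, 168, 167, 148 and 198 in heterozygous and 169, 156, 159 and 161 in homozygous libraries. Every homozygous library was below every wild type library, and 3 of 4 heterozygous libraries were as well. The homozygous difference was -0.30 (SE 0.10, 95% interval -0.52 to -0.07), with an edgeR p of 0.0143 and an adjusted p of 0.986, and -0.32 (SE 0.11) without the interneuron-poor libraries. Its paralogue Dpp10 did not follow it, at 44.9 ± 8.39, 54.4 ± 20.3 and 57.2 ± 17.0 CPM. The homozygous difference of Dpp10 was 0.35, and 0.13 without the interneuron-poor libraries. Accn1, an acid-sensing sodium channel, averaged 55.3 ± 6.47, 52.1 ± 6.79 and 46.7 ± 4.12 CPM.

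Genes for transcription, chromatin and RNA binding numbered 8, with 0 called and 4 each way in homozygotes. Rbfox1 gave the tightest values of the set, at 138 ± 7.97, 136 ± 4.54 and 138 ± 9.29 CPM, and its homozygous interval ran from -0.16 to 0.17. Its deposited span of 603 kb is shorter than the 1526 kb of GENCODE. The transcriptional activator Camta1 was at 182 ± 12.4, 184 ± 25.7 and 195 ± 21.2 CPM and the RNA-binding protein Rbms3 at 77.1 ± 10.8, 84.8 ± 13.6 and 91.2 ± 9.12 CPM.

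The 8 genes of metabolism and trafficking had 0 calls, 4 each way in homozygotes and 2 higher and 6 lower in heterozygotes. Cdkal1 (664 kb), which modifies a transfer RNA, was at 16.0, 14.3, 21.9 and 15.1 CPM in wild type, 11.9, 13.3, 19.3 and 10.6 in heterozygous and 13.5, 9.52, 12.7 and 13.4 in homozygous libraries. All homozygous libraries were below all wild type libraries, by a small margin. The difference was -0.45 (SE 0.22, adjusted p 0.986 with edgeR). Among genes of common fragile sites, the oxidoreductase Wwox averaged 42.1 ± 2.88, 39.6 ± 9.62 and 35.8 ± 7.20 CPM, Macrod2 37.7 ± 4.84, 36.0 ± 4.22 and 33.6 ± 3.53 CPM and Fhit 5.40 ± 1.04, 5.67 ± 1.73 and 6.09 ± 2.16 CPM. Galnt13, which starts O-linked sugar chains, averaged 15.9 ± 5.92, 16.1 ± 3.58 and 21.7 ± 3.13 CPM.

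On no role list were 17 members, with 0 calls and 9 higher and 8 lower estimates in homozygotes (median 0.00). Lama2, the laminin chain of muscle and nerve basement membranes, had the largest estimate of the set, 2.31 (SE 0.90), in homozygotes. Its levels were 0.265, 0.864, 0.431 and 0.547 CPM in wild type, 1.28, 1.29, 2.02 and 0.162 in heterozygous and 7.31, 1.28, 0.559 and 1.30 in homozygous libraries. A single homozygous library carried the estimate, which was 1.00 without it. March1, a membrane-bound ubiquitin ligase, was at 3.10 ± 1.74, 2.11 ± 0.997 and 4.84 ± 1.59 CPM, and all homozygous libraries were above all heterozygous ones. Cdk14, a cyclin-dependent kinase, averaged 127 ± 23.9, 94.1 ± 41.9 and 91.3 ± 32.9 CPM, with 36.4 and 45.1 CPM in the interneuron-poor libraries, and its homozygous difference of -0.48 was -0.25 without them. Gm20388 and Fgfr2 averaged 33.5 ± 4.80, 34.9 ± 6.62 and 33.5 ± 6.75 CPM and 15.2 ± 5.65, 15.6 ± 4.89 and 18.7 ± 8.85 CPM.

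More members followed the 2 interneuron-poor libraries than followed genotype, and the same held over all genes. In 24 of 114 members (21.1%) both of these libraries lay below all other 10, against 10.6% of all genes and 11.5% of shorter genes of like abundance. In 8 members (7.02%) both lay above the other 10, against 10.3% of all genes. This split was looked for after the libraries were seen to differ, and it is given without a test. The synaptic adhesion list and the immunoglobulin and contactin list together held 10 of these 24 (41.7%) and 30 of all 114 members (26.3%). That difference was not tested. Of those 30, 33.3% were among the 24, against 25% (2 of 8) in each of the cadherin, intracellular signalling and transcription lists. The other lists had 0% to 20%. Among the 24 were Nrxn3, Odz4 and Il1rapl2, the IgLON genes Ntm and Opcml, and Cadm2, Lingo2, Cntnap5a and Astn2. The transcription factor Sox5 held 1.65 and 1.06 CPM against 3.75 to 11.9 CPM, the leucine-rich repeat protein Lingo2 0.451 and 6.45 CPM against 15.7 to 30.9 CPM, and the neuregulin receptor Erbb4 0.549 and 0.392 CPM against 1.58 to 9.66 CPM. The 8 above were Nell1, Plcb1, Dab1, Dpp10, Magi1, Mctp1, Dlgap2 and Nkain3.

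The placing that chose these genes also fixes the direction of their genotype differences, so the following values are a description only. Over the 24 low members the median homozygous difference was -0.28, with 23 below 0, and without the 2 libraries it was -0.06, with 15 below 0. The heterozygous median went from -0.28 to -0.08. Over the 8 high members the homozygous median went from 0.30 to 0.10. The 82 other members had medians of 0.08 with and 0.10 without them. The part of interneuron RNA in these differences was not tested. The plot of the 2 libraries against the other 10 shows these genes.

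**Figure D4:**
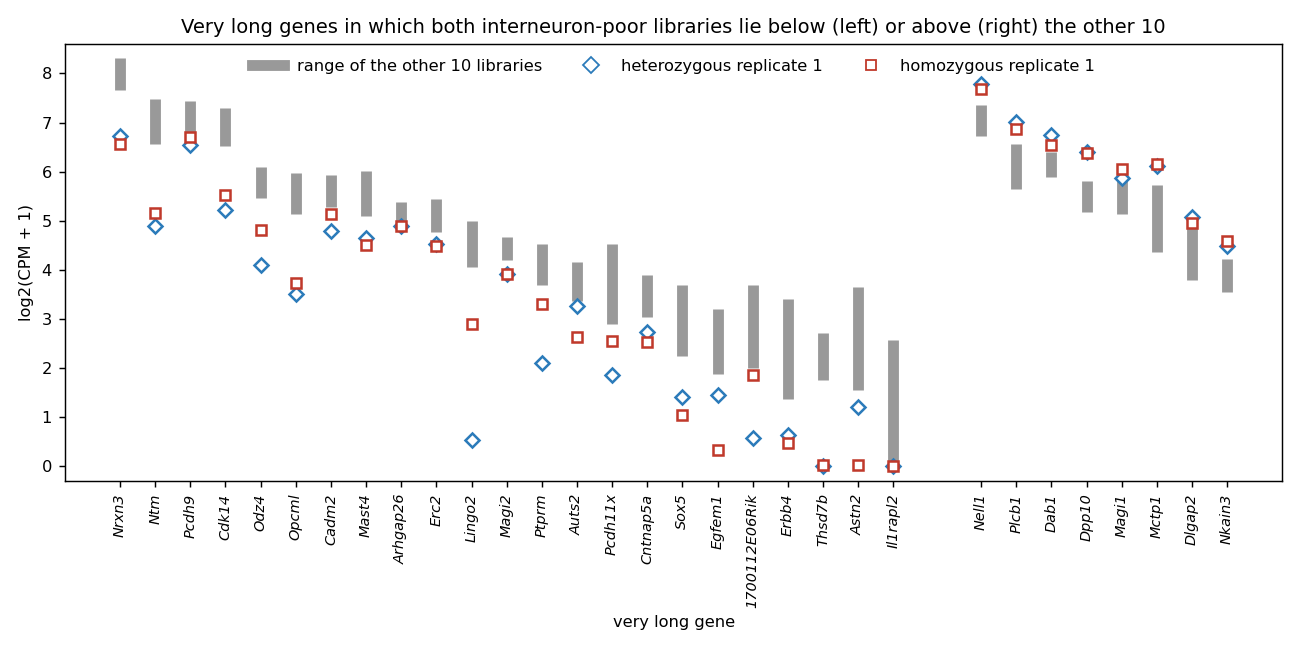
Level as log2(CPM + 1) (y axis) of 23 of the 24 members (left) and the 8 members (right) in which heterozygous replicate 1 (diamonds) and homozygous replicate 1 (squares) both lie outside the range of the other 10 libraries (grey bars). Nrxn3, at the left, held 105 and 93.0 CPM against 201 to 319 CPM.

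With both libraries left out, 0 members were called in any comparison, and 0 of all 16574 genes tested. At an unadjusted p under 0.05, homozygotes against wild type then had 9 members (7.89%, against 5.36% of all genes). Of these, Sntg1, Csmd3, Dpp6 and Erc2 were shared with the 6 found before. The others were Ptprt, Fstl5 and Sgcz, with higher estimates, and Thsd7b and Agbl4, with lower ones. Thsd7b had the smallest edgeR p of the 9, 0.00526 (adjusted p 0.873), with a difference of -0.97 (SE 0.28). Heterozygotes against wild type had 4 such members (3.51% against 5.23%), of which only Inpp4b was shared. Leaving out single libraries gave 4 to 10 members in homozygotes, while the share of all genes ran from 3.82% to 6.61%, and Sntg1 was among them each time.

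Long genes that earlier work on TDP-43 loss names were followed as a list of 9, held in 10 entries because Park2 has 2. None was called in any comparison, and 3 had higher and 7 lower estimates in homozygotes (median -0.13), against 6 higher and 4 lower in heterozygotes (median 0.17). The list holds Ptprd, Nrxn3, Nlgn1 and Fgf14, described above, and 4 genes under 600 kb. Cadps, a priming factor for dense-core vesicles, averaged 248 ± 8.53, 235 ± 14.6 and 227 ± 31.3 CPM in wild type, heterozygotes and homozygotes (SD, n = 4 each). Smyd3, a methyltransferase, was at 26.8 ± 4.92, 19.3 ± 2.27 and 24.4 ± 2.30 CPM, with a heterozygous difference of -0.47 and an edgeR p of 0.00955 that did not pass adjustment. The ephrin Efna5 held 23.9 and 21.7 CPM in the interneuron-poor libraries and 7.14 to 16.0 CPM in the wild type libraries. The longer Park2 entry, for the ubiquitin ligase parkin, averaged 2.76 ± 0.740, 3.41 ± 0.972 and 2.39 ± 0.917 CPM.

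Factors that help to transcribe and splice long genes were a further list, of which 29 of 30 were tested and 0 were called in any comparison, with 17 higher and 12 lower estimates in homozygotes (median 0.03). Examples are the elongation factor subunit Supt4h1 at 85.4 ± 4.99, 94.2 ± 6.82 and 96.0 ± 13.2 CPM and the RNA-binding protein Celf1 at 31.2 ± 1.73, 21.8 ± 5.13 and 25.7 ± 5.15 CPM in wild type, heterozygotes and homozygotes (SD, n = 4 each).

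At the edges of the rule, Mast4 (602 kb) and Rbfox1 (603 kb) were the shortest members. By the deposited coordinates, the guanine nucleotide exchange factor Kalrn (599 kb) and the sorting receptor Sorcs3 (599 kb) lay just outside. They were at 8.74 ± 3.13, 10.7 ± 3.59 and 15.0 ± 3.22 CPM and at 30.2 ± 8.85, 44.5 ± 15.4 and 36.7 ± 13.0 CPM. Kalrn spans 604 kb in GENCODE. Its homozygous difference was 0.78 (SE 0.32, edgeR p 0.0319, adjusted p 0.986), and that of Sorcs3 was 0.28 (SE 0.30). The least abundant members were 5730522E02Rik (mean count 24.3) and Nckap5 (37.6), and Gm15155 fell short with a mean count of 12.7. Of the 12 long genes set aside by symbol, 0 were called.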

How the data were processed

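The authors deposited raw read counts per gene for 12 libraries, and the submitters' processing notes name Trim Galore 0.4.3, HISAT2 2.0.5 and build GRCm38. Which program counted reads, with which annotation and strand option, is not given in the sources used here. Per the labels' protocols, template-switching cDNA amplification was followed by transposase library preparation, and neither adds molecular identifiers or keeps strand.

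Counts were scaled by TMM and filtered with filterByExpr (16338 genes kept). They were fitted over all 12 libraries with edgeR 4.0.16 (R 4.3.3), by a two-sided quasi-likelihood test per gene, with Benjamini-Hochberg adjustment over all genes and a threshold of 0.05. SE and 95% intervals come from that fit. The slope per copy came from a linear term in 0, 1 or 2 mutant alleles. The fit was also run on simulated counts with known changes, and the share of these that it recovered is not given here. Coordinates are those of the deposited table (GRCm38), and exons and transcripts are from GENCODE M21, which matched 112 of 114 members. Shorter genes of like abundance are all tested genes under 600 kb with a mean count of 20 or more, in classes of mean count that start at 20, 100, 300, 1000 and 3000, weighted as the members fall.

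Named are the members with the smallest p (10 in homozygotes, 5 in each other comparison), the 10 longest, the 10 most abundant, those on the list from earlier work, those at the thresholds and up to 3 of each role. Genes named for their place in the interneuron-poor libraries, for their p without those libraries or for non-overlap were chosen after their values were seen. The members and all gene lists were chosen with earlier results of these data known. Alternatives were DESeq2 1.42.0, limma-voom (limma 3.58.1), other scaling, filters, thresholds and samples, and the replicate number as a block. Replicate numbers were not taken to pair the libraries, since 9 of 12 same-numbered pairs had a correlation of deviations of 0.1 or less. The highest of the 12 was 0.45, above the highest of 36 differently numbered pairs (0.13), and the 2 interneuron-poor libraries share number 1. The values of 3 genes that the rule would name are not reported here.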

Additional observations from a re-analysis of the deposited data

Results flagged for a closer look

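Single libraries stood apart in 6 of 66 groups of 4 libraries examined, where chance alone flags about 1 in 20. In each, the gap from 1 library to the nearest of the other 3 took a larger share of the group's range than Dixon's critical value for 4 values. Over all 114 members, 21 of 342 groups did so.

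Heterozygous replicate 1 was low for the summed level of the members, at 3603 CPM against 3907 to 3948 CPM in the other heterozygotes. It was also low for Erc2, at 22.2 CPM against 32.8 to 33.3 CPM. Homozygous replicate 1 was low for Nrxn3, at 93.0 CPM against 243 to 255 CPM, and high for Lama2, at 7.31 CPM against 0.559 to 1.30 CPM. These 2 libraries held 21.5 and 19.4 CPM of inhibitory interneuron markers against 199 to 480 CPM elsewhere, and the part of that difference in these values was not tested. Homozygous replicate 3 was low for Fgf14, at 18.2 CPM against 24.4 to 25.3 CPM, and high for Galnt13, at 26.4 CPM against 19.9 to 20.5 CPM.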

How the results depend on the processing

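The count of members called was 0 in each of the 4 comparisons under every alternative run. The replicate block called 0, 0, 0 and 0 members, and 1, 0, 0 and 4 of all genes. The block raised the members at an unadjusted p under 0.05 from 6 to 17 in homozygotes against wild type (14.9% of members, 8.76% of all genes), from 4 to 12 in heterozygotes (10.5% and 7.08%) and from 6 to 22 for the slope (19.3% and 8.90%). Over these counts and the members' median minus that of shorter genes, 189 alternatives kept the value within 1.5 times or 1 SD between libraries and 1 did not. That was the median between homozygotes and heterozygotes (0.068), which ranged from 0.0035 (without homozygous replicate 3) to 0.074 when single libraries were left out. Within 1 SD the gap still changed size and sign. For homozygotes against wild type it was 0.030, and 0.063 without homozygous replicate 1, 0.0012 without homozygous replicate 2, 0.020 without homozygous replicate 3, 0.048 without wild type replicate 2, -0.0072 without wild type replicate 3 and -0.0014 without wild type replicate 4. For heterozygotes it was -0.034, and 0.0061 without heterozygous replicate 1, 0.00090 without wild type replicate 2 and -0.064 without heterozygous replicate 2. DESeq2 and limma-voom were added for the medians after seeing the data.

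Among named genes, signs turned for 3 whose differences were small. Nlgn1 in homozygotes was -0.024 without wild type replicate 4, and ranged from -0.024 to 0.26 over single libraries left out. Fgf14 in homozygotes ranged from -0.19 to 0.010, turning without homozygous replicate 3 (0.010) and wild type replicate 2 (0.0097). In heterozygotes Fgf14 was -0.11 with limma-voom, -0.10 without heterozygous replicate 1 and -0.10 without both interneuron-poor libraries (range -0.10 to 0.30). Nrxn3 in heterozygotes was 0.12 without heterozygous replicate 1, 0.0026 without wild type replicate 4 and 0.13 without both interneuron-poor libraries (range -0.23 to 0.12). The cause was not tested. Without homozygous replicate 1, Lama2 went from 2.31 to 1.00. Members with few counts had standard errors up to 2.17, at which a 2-fold difference was not detectable.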
